A study of Homo sapiens with 12 samples.

Results

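The aldo-keto reductases considered here are 7 genes: AKR1A1, AKR1B1, AKR1B10, AKR1C1, AKR1C2, AKR1C3 and AKR7A2. They were picked by symbol from the 57500 genes of a table of raw RNA-seq counts, and the counts of the 3 neighbouring AKR1C genes were also added up in each library (AKR1C sum). All 7 were among the 16251 genes that passed the filter on low counts. The cells were MRC5, a line of fibroblasts from human embryonic lung, grown at atmospheric oxygen in medium with serum. The 12 libraries form 4 groups of 3. Prol cells were proliferating. Sen(IR) cells had been made senescent with 20 Gy of X-rays and were collected 10 to 12 days later. Sen(IR)+UK5099 and Sen(IR)+CTPI2 cells were irradiated in the same way and kept from day 1 in an inhibitor: UK5099 blocks the mitochondrial pyruvate carrier and was used at 100 μM, and CTPI2 blocks the mitochondrial citrate carrier SLC25A1. The methods give CTPI2 at 15 or 30 μM and the labels do not say which was sequenced, so the inhibitors were compared at doses that differ. Everything was measured in 1 cell line, and both inhibitor groups share the 3 Sen(IR) libraries as their control.

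Aldo-keto reductases use NADPH to reduce the carbonyl group of aldehydes, ketones, sugars, steroids and prostaglandins to an alcohol. Several members are known targets of the transcription factor NRF2 (gene NFE2L2), which human cells switch on under oxidative or electrophilic stress, and the AKR1C genes are among the most responsive of these in human cells. In fibroblasts the enzymes clear aldehydes from lipid peroxidation and, through AKR1B1 and AKR1C3, can make prostaglandin F from other prostaglandins.

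The members lie on 3 chromosomes (GRCh38). AKR1C1 (chr10:4963253-4983283, plus strand), AKR1C2 (chr10:4987775-5018031, minus strand) and AKR1C3 (chr10:5035354-5107686, plus strand) form a cluster. AKR1B1 (chr7:134442356-134459284, minus strand) and AKR1B10 (chr7:134527567-134541412, plus strand) are neighbours, and AKR1A1 (chr1:45550543-45570049, plus strand) and AKR7A2 (chr1:19303965-19312144, minus strand) lie apart on chromosome 1. No exon base of a member is shared with another annotated gene (GENCODE v44).

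The 3 AKR1C genes are near copies, and this sets how far their counts can be told apart. Over 972 coding bases each, AKR1C1 and AKR1C2 were identical at 98.0% of positions, with 19 mismatches and a longest identical run of 189 bases, which is longer than a read of 150 bases. AKR1C1 and AKR1C3 shared 91.5%, AKR1C2 and AKR1C3 91.0%, and AKR1B1 and AKR1B10 76.2%. The stretch from coding base 103 to 162, read from the reference on the coding strand, is shown because no other 60 coding bases hold more differences between AKR1C1 and AKR1C2. Capitals mark bases that differ from AKR1C1, 10 in AKR1C2 and 7 in AKR1C3.
AKR1C1: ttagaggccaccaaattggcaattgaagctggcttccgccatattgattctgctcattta
AKR1C2: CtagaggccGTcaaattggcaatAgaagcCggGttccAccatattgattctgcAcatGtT
AKR1C3: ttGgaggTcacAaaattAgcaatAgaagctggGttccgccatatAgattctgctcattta

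Reads from such a stretch can be assigned. A read from an identical stretch can be placed only through its mate, and only uniquely placed reads were counted. Of all windows of 150 bases in the main annotated transcript, 7.91% of those of AKR1C1 (506 of 6394), 17.22% of those of AKR1C2 and 2.12% of those of AKR1C3 occur unchanged in a transcript of another gene. For AKR1A1, AKR1B1, AKR1B10 and AKR7A2 this share was 0%. These windows are single reads, and in paired-end data fewer fragments may be affected. The main transcripts of AKR1C1, AKR1C2 and AKR1C3 have 6543, 3215 and 1186 bases, and for other transcripts of these genes the shares can differ. The split between AKR1C1 and AKR1C2 therefore remains uncertain to some extent, and the AKR1C sum is given beside the single copies.

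In the 250 bases before the start site AKR1C1 and AKR1C2 are near copies, while AKR1C3 is more distant. They are shown for the AKR1C genes because these 3 genes moved in the same direction below, and come from RefSeq (GRCh38.p14). RefSeq entries were found for 6 of the 7 members, all but AKR1B10. AKR1C3 has 2 such windows, and the one nearest the start of its main annotated transcript is shown. AKR1C1 (chr10:4963165-4963414, plus strand) and AKR1C2 (chr10:5003858-5004107, minus strand) align with 245 identical bases and 1 mismatch (99.6% identical), while AKR1C1 and AKR1C3 (chr10:5094164-5094413, plus strand) were 73.6% identical. Capitals mark bases inside the aligned part that differ from AKR1C1 or have no counterpart in it. There is 1 in AKR1C2, and of the 66 in AKR1C3, 50 are mismatches and 16 fall in gaps of AKR1C1.
AKR1C1: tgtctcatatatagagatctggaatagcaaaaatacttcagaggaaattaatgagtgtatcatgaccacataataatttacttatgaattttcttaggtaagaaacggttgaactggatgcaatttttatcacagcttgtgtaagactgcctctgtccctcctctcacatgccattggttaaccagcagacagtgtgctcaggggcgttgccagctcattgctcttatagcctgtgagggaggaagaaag
AKR1C2: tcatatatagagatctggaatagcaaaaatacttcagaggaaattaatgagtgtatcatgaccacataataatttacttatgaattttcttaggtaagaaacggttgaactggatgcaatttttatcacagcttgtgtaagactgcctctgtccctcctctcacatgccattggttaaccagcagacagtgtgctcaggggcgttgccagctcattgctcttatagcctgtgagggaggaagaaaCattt
AKR1C3: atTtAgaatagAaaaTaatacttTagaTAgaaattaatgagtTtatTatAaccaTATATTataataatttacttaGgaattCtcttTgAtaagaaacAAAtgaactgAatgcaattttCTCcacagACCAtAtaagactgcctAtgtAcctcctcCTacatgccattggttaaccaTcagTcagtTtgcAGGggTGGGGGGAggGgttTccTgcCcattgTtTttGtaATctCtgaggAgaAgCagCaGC

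The core of the antioxidant response element bound by NRF2, written TGACNNNGC, was searched on both strands of the RefSeq windows, which reach from 250 bases before to 50 bases after a start. It was present in 13.3% of 35116 windows. No window of AKR1C1, AKR1C2, AKR1C3, AKR1B1 or AKR1A1 held it, whereas both windows of AKR7A2 did. The AP-1 motif TGANTCA, some matches of which can overlap the first, was in 7.7% of all windows and in none of a member. A match is a string of letters in this window only, and elements further upstream were not searched.

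Library totals ran from 20597736 to 28245693 counts (median 23650931). At this depth 3 counts amount to at most 0.147 CPM, the count per 1000000 counts of the library after TMM factors of 0.953 to 1.05. All 10 fibroblast markers checked, among them COL1A1 and VIM, were detected. No marker of epithelial cells passed 1.28 CPM in any library, no leukocyte marker passed 4.87 CPM (TYROBP had no count), and of 5 endothelial markers only TEK was above 1 CPM as a group mean (172 to 360 CPM). In these bulk samples, fewer cells of a type and less RNA per cell cannot be told apart. Tests are edgeR quasi-likelihood tests from a joint fit of the 4 groups. A gene was called, and is said to have risen or fallen, at a Benjamini-Hochberg adjusted p under 0.05 over all genes tested with an absolute log2 fold change above 0.5. Levels are means ± SD of 3 libraries, fold changes carry their SE, and intervals are 95% intervals by a normal approximation. The study describes its replicates as independent experiments or conditions, while the labels do not name the cultures behind single libraries.

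The comparison of Sen(IR) with Prol asked what changes in irradiated, senescent cells. AKR1C1, AKR1C2, AKR1C3 and AKR1B1 rose, so that 4 of the 7 members were higher, and none fell. Among all genes tested, 24.8% were called higher and 47.2% were called in either direction. The median log2 fold change of the members was 1.19, against 0.01 over all genes. For 4 members the Prol and Sen(IR) values did not overlap, which was so for 70.9% of all genes.

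AKR1C1, which inactivates progesterone, was at 42.3, 55.0 and 48.5 CPM in the Prol libraries and at 202, 198 and 204 CPM in the Sen(IR) libraries. Every irradiated library lay far above every proliferating one. The increase was 4.14-fold (log2 fold change 2.05, SE 0.0705, adjusted p = 6.6e-17). AKR1C2, which reduces the androgen dihydrotestosterone, was at 2.73, 3.95 and 3.23 CPM in Prol and at 8.72, 7.92 and 7.5 CPM in Sen(IR), again without overlap. Its increase was 2.44-fold (log2 fold change 1.29, SE 0.138, adjusted p = 2.39e-08).

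AKR1C3, which makes testosterone and reduces prostaglandins, was the least abundant of the 3 copies, with 14, 22 and 23 counts in Prol (0.597, 0.945 and 0.855 CPM) and 36, 33 and 48 counts in Sen(IR) (1.6, 1.56 and 2.35 CPM). The groups did not overlap, but the SE was wider. The increase was 2.28-fold (log2 fold change 1.19, SE 0.258, adjusted p = 0.000313). The AKR1C sum went from 52.7 ± 7.13 CPM to 211 ± 3.24 CPM, a 4.01-fold increase (log2 fold change 2.0, SE 0.0714, adjusted p = 1.22e-16), and so moved almost as AKR1C1 did.

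AKR1B1, the aldose reductase that turns glucose into sorbitol, was at 137, 139 and 159 CPM in Prol and at 497, 461 and 478 CPM in Sen(IR). This was a 3.3-fold increase without overlap (log2 fold change 1.72, SE 0.0554, adjusted p = 2.04e-17). Its neighbour AKR1B10, an enzyme of the gut that reduces retinal, was low and scattered, at 1.75, 0.987 and 2.49 CPM in Prol and 1.51, 2.65 and 2.01 CPM in Sen(IR). The groups overlapped (log2 fold change 0.22, SE 0.288, adjusted p = 0.507), and its interval of -0.34 to 0.78 left either direction possible.

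The remaining members had small log2 fold changes with narrow intervals. AKR1A1, the aldehyde reductase that also reduces glucuronate, had 47.6 ± 2.5 CPM in Prol and 43.0 ± 1.8 CPM in Sen(IR) (log2 fold change -0.15, SE 0.0693, adjusted p = 0.066, interval -0.28 to -0.01). Its interval lies below 0, while its adjusted p misses the threshold. AKR7A2, which reduces succinic semialdehyde, had 24.1 ± 2.88 and 23.7 ± 1.42 CPM (log2 fold change -0.03, SE 0.0851, adjusted p = 0.768, interval -0.2 to 0.14). Upper-quartile scaling turned this last value to 0.09 and moved the median of all genes to 0.135.

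**Figure D1:**
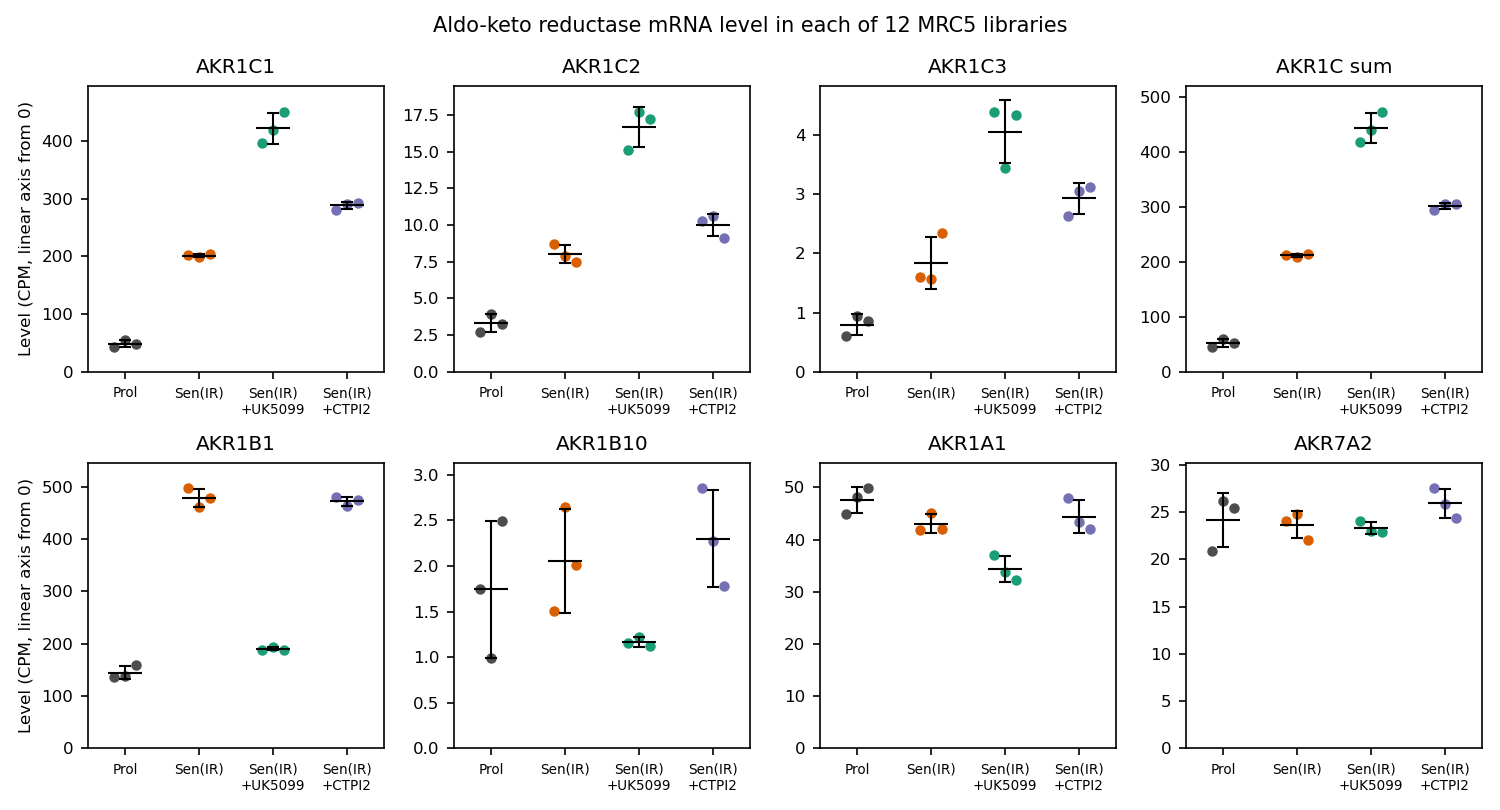
Level of each aldo-keto reductase and of the AKR1C sum in CPM on linear axes that start at 0, with 1 point per library, and the mean and SD of the 3 libraries of each group as a bar with whiskers. The AKR1C genes were highest with UK5099 (AKR1C1 422 CPM), while AKR1B1 was high in Sen(IR) and with CTPI2 (479 and 473 CPM) and lower with UK5099 (190 CPM).

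The comparison of Sen(IR)+UK5099 with Sen(IR) asked what changes when irradiated cells are kept from day 1 in UK5099, which blocks the pyruvate carrier. Other actions of the compound at this dose were not tested. The members split by subfamily: AKR1C1, AKR1C2 and AKR1C3 rose, while AKR1B1 and AKR1B10 fell. Thus 3 of 7 were higher, against 8.76% of all genes, and 2 of 7 were lower, against 12.1%. The 3 higher members are near copies, so they do not count as 3 independent genes. Of the 2 lower ones, the AKR1B10 call rests on few counts and was lost without some single libraries, as given below. In either direction 20.8% of all genes were called. The members' median log2 fold change of -0.02 (0.01 over all genes) hides this split. For 6 members the UK5099 and Sen(IR) values did not overlap (56.6% of all genes).

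AKR1C1 reached 397, 419 and 450 CPM with UK5099, each far above the highest Sen(IR) library. It rose a further 2.1-fold (log2 fold change 1.07, SE 0.0656, adjusted p = 8.61e-12). AKR1C2 was at 15.1, 17.7 and 17.2 CPM and rose 2.07-fold (log2 fold change 1.05, SE 0.114, adjusted p = 1.09e-07). AKR1C3 was at 4.39, 3.45 and 4.34 CPM and rose 2.21-fold (log2 fold change 1.14, SE 0.204, adjusted p = 8.19e-05). The log2 fold changes of the 3 copies differed by less than the SE of AKR1C3, the widest of the 3. The AKR1C sum rose 2.1-fold (log2 fold change 1.07, SE 0.0667, adjusted p = 1.16e-11) to 443 ± 27.6 CPM. Against Prol the sum with UK5099 was 8.41-fold higher (log2 fold change 3.07, SE 0.0729, adjusted p = 6.48e-20).

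AKR1B1 went the other way. With UK5099 it was at 189, 194 and 189 CPM, which is below every Sen(IR) library and still above every Prol library. The fall was to 0.398 of the Sen(IR) level (log2 fold change -1.33, SE 0.0546, adjusted p = 7.32e-15). Against Prol it was 1.31-fold higher (log2 fold change 0.39, SE 0.0547, adjusted p = 1.13e-06), under the limit on the fold change.

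AKR1B10 fell on few counts, 28, 33 and 29 with UK5099 (1.16, 1.22 and 1.12 CPM) against 34, 56 and 41 in Sen(IR). The groups did not overlap (log2 fold change -0.81, SE 0.303, adjusted p = 0.0334). This call was lost without Sen(IR) replicate 2 (log2 fold change -0.58, adjusted p = 0.184), without Sen(IR) replicate 3 and without any single UK5099 library (adjusted p of 0.0582 to 0.0814 in these 4 fits). AKR1A1 was at 37.1, 33.8 and 32.3 CPM with UK5099, below all 3 Sen(IR) libraries at 41.9, 45.1 and 42.0 CPM. Its difference passed the limit on the adjusted p but not on the fold (log2 fold change -0.32, SE 0.0704, adjusted p = 0.00068). AKR7A2 had 23.3 ± 0.696 CPM (log2 fold change -0.02, SE 0.085, adjusted p = 0.865, interval -0.19 to 0.15).

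In the same libraries the summed level of the 10 fibroblast markers was 15800 to 17000 CPM with UK5099, against 27200 to 28500 CPM in Sen(IR). The largest differences among them were in COL1A2 (3520 against 7320 CPM), COL1A1 (1600 against 4710 CPM) and COL3A1 (819 against 2750 CPM), while DCN was at 1360 CPM in both groups. The part of this shift in the AKR results was not tested. The ratio of AKR1C1 to AKR1B1 within a library, given further on, does not depend on the library's scaling.

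The comparison of Sen(IR)+CTPI2 with Sen(IR) asked the same of CTPI2, which blocks the citrate carrier. Only AKR1C1 was called among the members, 1 of 7, in a comparison where 0.0185% of all genes were called higher and 0.166% in either direction. At an unadjusted p under 0.05, 3 members passed. The share of all genes under this unadjusted limit is not given here. Such counts, also those of the gene lists below, therefore show no excess over other genes by themselves. The values did not overlap for 3 members, AKR1C1, AKR1C2 and AKR1C3 (15.1% of all genes).

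AKR1C1 was at 281, 291 and 293 CPM with CTPI2, between the Sen(IR) and the UK5099 libraries without overlap with either. The fitted increase was 1.43-fold (log2 fold change 0.52, SE 0.0654, adjusted p = 9.89e-05), just past the limit on the fold change. AKR1C2 was at 10.3, 10.6 and 9.14 CPM (log2 fold change 0.31, SE 0.12, unadjusted p = 0.0155, adjusted p = 0.494), and AKR1C3 at 2.63, 3.05 and 3.12 CPM (log2 fold change 0.68, SE 0.213, unadjusted p = 0.00435, adjusted p = 0.285). Both point the same way as AKR1C1 and neither passed the adjusted limit, with intervals of 0.08 to 0.55 and 0.26 to 1.1. The AKR1C sum, at 301 ± 6.17 CPM, was called (log2 fold change 0.51, SE 0.0665, adjusted p = 0.000143), but without Sen(IR) replicate 2 its log2 fold change was 0.499 and missed the limit on the fold.

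AKR1B1 was at 480, 463 and 475 CPM with CTPI2, within the range of Sen(IR). The log2 fold change was -0.02 (SE 0.0532, adjusted p = 0.975), and its interval of -0.12 to 0.09 leaves room for a small difference only. For AKR1A1 (44.4 ± 3.1 CPM, log2 fold change 0.05, interval -0.09 to 0.18) and AKR7A2 (25.9 ± 1.56 CPM, log2 fold change 0.13, interval -0.04 to 0.3) the intervals were narrow as well. AKR1B10 had 2.3 ± 0.538 CPM and a wide interval (log2 fold change 0.16, -0.39 to 0.71).

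**Figure D2:**
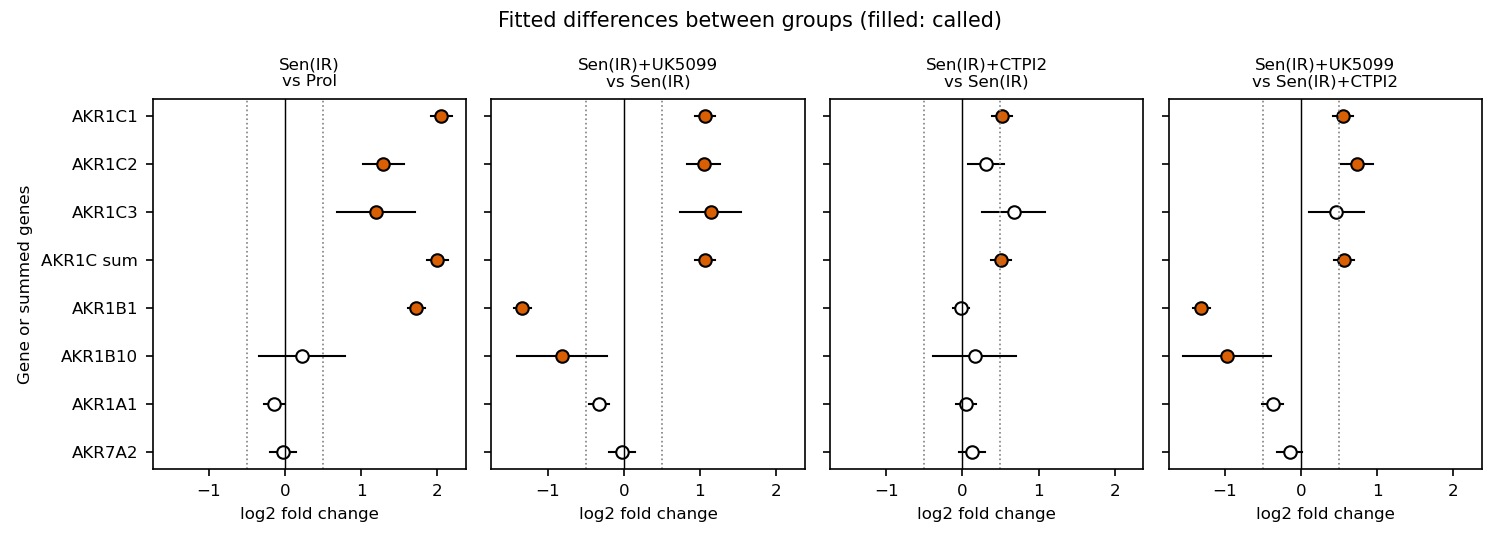
Fitted log2 fold changes of the members and the AKR1C sum in the 4 comparisons, with 95% intervals as lines. Filled points passed both limits, and dotted lines mark the limit of 0.5 on the fold change. The AKR1C genes lie right of 0 in every panel, and AKR1B1 goes from 1.72 in senescence to -1.33 with UK5099 and -0.02 with CTPI2.

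The inhibitors were also compared with each other, which tests their difference directly. With UK5099 rather than CTPI2, AKR1C1 and AKR1C2 were higher and AKR1B1 and AKR1B10 lower, 2 of 7 members in each direction, against 8.2% and 11.7% of all genes (19.9% in either direction). For all 7 members the values of the UK5099 and CTPI2 libraries did not overlap, as for 53.6% of all genes. AKR1C1 was 1.47-fold higher (log2 fold change 0.55, SE 0.0647, adjusted p = 3.87e-07) and AKR1C2 1.66-fold higher (log2 fold change 0.73, SE 0.11, adjusted p = 1.1e-05). AKR1B1 was at 0.403 of its level with CTPI2 (log2 fold change -1.31, SE 0.0545, adjusted p = 1.2e-14). AKR1B10 was at 0.51 of it (log2 fold change -0.97, SE 0.295, adjusted p = 0.0105), and this call was lost without CTPI2 replicate 1 (log2 fold change -0.79, adjusted p = 0.0634).

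AKR1C3 and AKR1A1 passed the limit on the adjusted p but not on the fold (log2 fold change 0.46, adjusted p = 0.0494, and -0.37, adjusted p = 0.000167). AKR1C3 was called without UK5099 replicate 2 (log2 fold change 0.57, adjusted p = 0.0318). AKR7A2 had a log2 fold change of -0.15 (SE 0.0838, adjusted p = 0.149, interval -0.32 to 0.01). The AKR1C sum was 1.47-fold higher with UK5099 (log2 fold change 0.56, SE 0.0658, adjusted p = 4.23e-07).

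Across the 4 groups the order of AKR1C1 was therefore Prol, Sen(IR), Sen(IR)+CTPI2 and Sen(IR)+UK5099, with every neighbouring pair past the limit on the adjusted p. The order of AKR1C2 and of AKR1C3 was the same, but the step from Sen(IR) to Sen(IR)+CTPI2 did not pass the test. For AKR1B1 the order was Prol, Sen(IR)+UK5099, Sen(IR)+CTPI2 and Sen(IR), and the last pair did not differ beyond the spread between libraries. AKR1A1 was lowest with UK5099, and its other neighbouring pairs did not pass the test. No neighbouring pair passed it for AKR1B10 or AKR7A2.

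Among the 3 copies, AKR1C1 held nearly all of the counts. Its share of the AKR1C sum was 92.7, 91.8 and 92.2% in the Prol libraries and between 95.1 and 96.0% in the 9 irradiated ones. AKR1C2 held 6.25 ± 0.318% in Prol, 3.81 ± 0.3% in Sen(IR), 3.76 ± 0.23% with UK5099 and 3.33 ± 0.288% with CTPI2, and AKR1C3 held 1.5 ± 0.17, 0.87 ± 0.2, 0.919 ± 0.135 and 0.974 ± 0.0687%. For each copy the Prol libraries did not overlap the Sen(IR) libraries (exact permutation test, two-sided p = 0.1, the smallest that 3 against 3 allow, adjusted p = 0.138 over 18 comparisons). Between Sen(IR) and UK5099 the shares overlapped (exact permutation p = 1, 0.9 and 0.8 for AKR1C1, AKR1C2 and AKR1C3), with AKR1C1 at 95.3% in both, while the sum rose 2.1-fold.

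Levels of different genes can be compared only per length. On a scale of counts per base of annotated exon, scaled to the same sum in every library as in TPM, AKR1B1 was the most abundant member in every group, with means of 164, 554, 222 and 556 in Prol, Sen(IR), UK5099 and CTPI2. AKR1C1 followed with 23.0, 97.0, 205 and 141 in the same order. With UK5099 the rank of AKR1C1 below AKR1B1 rests on the lengths, 8765 merged exon bases for AKR1C1 and 3654 for AKR1B1. Before division by length, AKR1C1 had 422 CPM and AKR1B1 190 CPM in that group. Which transcripts the cells made was not tested. In Prol AKR1C1 ranked below AKR1A1 (63.1 ± 2.65) and AKR7A2 (56.2 ± 6.45), and in the irradiated groups above both. AKR1C2 (2.25 to 11.6), AKR1B10 (2.81 to 5.55) and AKR1C3 (0.846 to 4.43) stayed far below as group means. The members together came to 314 ± 19.7 in Prol, 778 ± 20.5 in Sen(IR), 549 ± 13.2 with UK5099 and 836 ± 15 with CTPI2, of which AKR1B1 made up 52.4, 71.2, 40.5 and 66.4% and AKR1C1 7.31, 12.5, 37.4 and 16.9%.

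The ratio of AKR1C1 to AKR1B1 on this scale, computed after the levels had been seen, shows the exchange within single libraries. It was 0.129, 0.164 and 0.127 in Prol and 0.169, 0.179 and 0.178 in Sen(IR). With UK5099 it was 0.877, 0.901 and 0.995, and with CTPI2 it was 0.244, 0.261 and 0.257. No group overlapped another. Each of the 6 pairs of groups gave the smallest p that 3 against 3 allow (exact permutation test, two-sided p = 0.1, adjusted p = 0.1). Between UK5099 and Sen(IR) or CTPI2 this was fixed by the levels, as AKR1C1 was higher and AKR1B1 lower in every UK5099 library. The test adds nothing to the levels in these pairs. With the longest transcript as the length, the ratio with UK5099 was 0.654 ± 0.0441, so that whether AKR1C1 came near the level of AKR1B1 depends on the length used, while the differences between groups do not.

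**Figure D3:**
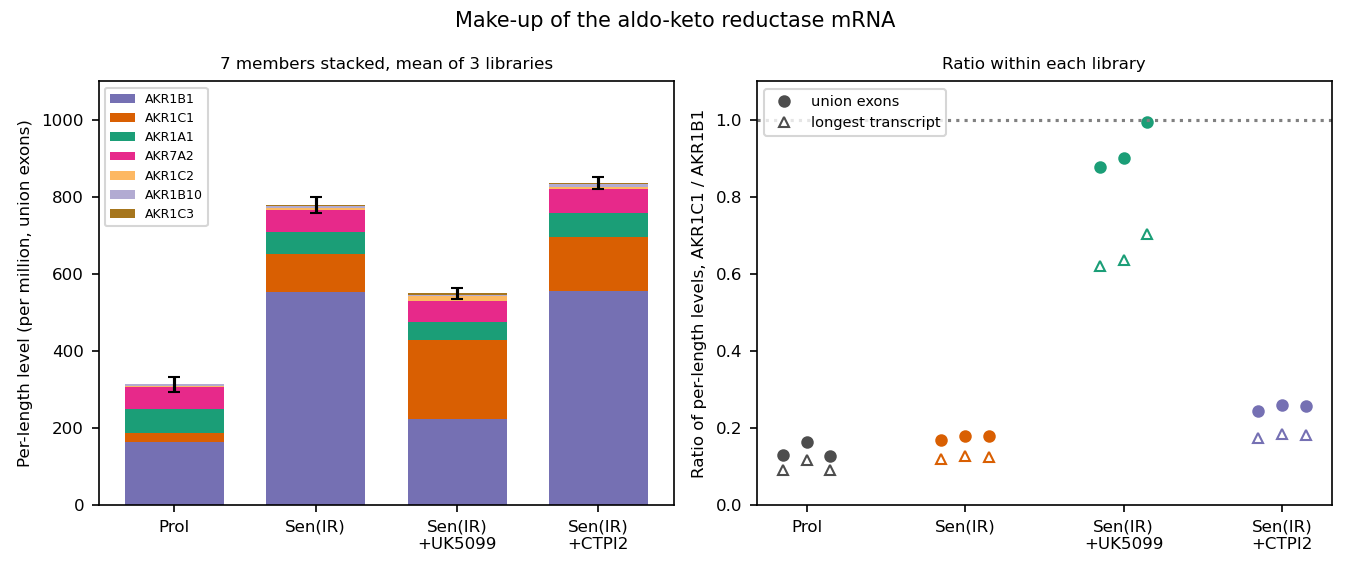
Left, mean per-length levels of the 7 members stacked for each group, with the SD of their total as whiskers, on an axis from 0. Right, the ratio of AKR1C1 to AKR1B1 per length in each library, with exons merged (circles) or the longest transcript (triangles) as the length. The ratio lies between 0.877 and 0.995 with UK5099 and at 0.261 or below in all other libraries for merged exons.

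Of the other genes of the superfamily, most had few counts. AKR1B15, AKR1C4, AKR1C8 (AKR1C8P in the table), AKR1D1, AKR7A3 and AKR7L did not pass the filter, and the highest count of any of them in a library was 13. KCNAB2, a beta subunit of voltage-gated potassium channels with an aldo-keto reductase fold, went from 1.24 ± 0.186 CPM in Prol to 4.93 ± 1.18 in Sen(IR) (log2 fold change 1.98, SE 0.2, adjusted p = 8.96e-09) and to 9.29 ± 0.403 with UK5099 (log2 fold change against Sen(IR) 0.91, SE 0.151, adjusted p = 3.83e-05). It thus rose in both comparisons. KCNAB3, another such subunit, fell from 2.01 ± 0.266 to 0.633 ± 0.326 CPM in Sen(IR) (log2 fold change -1.64, adjusted p = 0.000384), and AKR1E2, a sugar reductase, fell from 2.03 ± 0.372 to 1.06 ± 0.362 CPM (log2 fold change -0.95, adjusted p = 0.00341). KCNAB1 (1.79 to 2.27 CPM as group means) was not called in any of the 4 comparisons. Small parts of the exons of KCNAB1 (1.77%), KCNAB2 (1.23%) and KCNAB3 (5.44%) overlap other genes.

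Among known NRF2 targets other than AKR genes, 28 were tested. In senescence 7 rose and 6 fell, shares close to those among all genes tested (24.8% higher and 22.4% lower). The median log2 fold change was -0.16. FTH1, the ferritin heavy chain (log2 fold change 1.76, adjusted p = 1.53e-18), and EPHX1, an epoxide hydrolase (1.1, 8.66e-12), rose. So did SLC48A1 (1.14, 8.72e-11) and HMOX1, from 19.2 ± 1.0 to 39.2 ± 3.91 CPM (1.03, 2.51e-11). The abundant NQO1, a quinone reductase, had 773 CPM in Prol and 593 CPM in Sen(IR) (log2 fold change -0.38, under the fold limit, named after its values were seen). In the same comparison the log2 fold changes of the AKR1C genes were 1.19 to 2.05.

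With UK5099, 15 of the 28 NRF2 targets rose and none fell (median 0.57, all genes 0.01). Among all genes 8.76% rose and 12.1% fell. HMOX1, the heme oxygenase, went from 39.2 ± 3.91 to 179 ± 5.9 CPM (log2 fold change 2.19, SE 0.0665, adjusted p = 2.99e-17), OSGIN1 from 17.9 ± 1.69 to 63.8 ± 2.32 CPM (1.83, SE 0.0981, 8.33e-13) and EPHX1 from 134 ± 4.86 to 348 ± 12.8 CPM (1.38, SE 0.0711, 4.05e-13). Compared with CTPI2, 11 were higher and none lower with UK5099 (median 0.36), against 8.2% higher and 11.7% lower among all genes. With CTPI2 no NRF2 target passed both limits in edgeR. Of the 28, 26 had a positive log2 fold change (median 0.17, all genes 0.003), 19 had an unadjusted p under 0.05, and 2 passed the adjusted p alone, NQO1 (log2 fold change 0.33, adjusted p = 0.000433) and ABCC3, a drug exporter (0.39, adjusted p = 0.00846), which are named after their values were seen. The share of all genes with an unadjusted p under 0.05 is not given here.

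Of 11 regulators of this pathway, 4 rose and 2 fell in senescence, against 24.8% higher and 22.4% lower among all genes. NFE2L2 itself rose from 290 ± 37.3 to 463 ± 15.7 CPM (log2 fold change 0.68, adjusted p = 3.28e-09), and its relative NFE2L1 (1.15, adjusted p = 6.09e-16) and the autophagy adaptor SQSTM1 (0.96, adjusted p = 4.76e-13) also rose. With UK5099, 9 of the 11 passed the adjusted p, in both directions. The share of all genes at this limit alone is not given here. Of the 9, 2 also passed the fold limit, and 20.8% of all genes passed both limits. BACH2, a repressor that binds related elements, rose (log2 fold change 1.02, adjusted p = 0.000426) and MAFF, a partner of NRF2, fell (-1.41, adjusted p = 3.55e-12). NFE2L2 (log2 fold change 0.32, adjusted p = 0.000282, 578 against 463 CPM) and NFE2L1 (-0.45, adjusted p = 1.99e-08, 453 against 620 CPM) stayed under the fold limit. None of the 11 was called with CTPI2 in edgeR, and 1 had an unadjusted p under 0.05.

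Other enzymes that act on carbonyls and aldehydes did not follow a single direction. In senescence 19 of 43 rose and 4 fell (median 0.42), where 24.8% of all genes rose and 22.4% fell. ALDH1A1, which makes retinoic acid, went from 0.25 ± 0.232 to 5.28 ± 1.4 CPM (log2 fold change 4.4, adjusted p = 5.49e-11), and ALDH5A1, which oxidises the succinic semialdehyde that AKR7A2 reduces, from 1.84 ± 0.328 to 8.87 ± 0.858 CPM (2.26, adjusted p = 7.59e-12). ALDH3A1 had no count in any Prol library and was at least 4.23-fold higher in Sen(IR) than a floor of 3 counts per library. With UK5099, 5 rose and 8 fell (median 0.08), where 8.76% of all genes rose and 12.1% fell. ALDH5A1 rose again (log2 fold change 1.47, adjusted p = 2.03e-10), and DHRS3, which reduces retinal, fell from 15.6 ± 0.487 to 1.58 ± 0.272 CPM (-3.29, adjusted p = 1.04e-13). None was called with CTPI2 in edgeR. There 6 had an unadjusted p under 0.05, and PTGR1, a reductase that inactivates prostaglandins, passed the adjusted p alone (0.4, adjusted p = 0.000421, named after its value was seen).

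The polyol and glucuronate pathway holds the steps around AKR1B1 and AKR1A1. Of 16 genes tested, 4 rose and 2 fell in senescence, and 4 rose and 3 fell with UK5099 (medians -0.18 and 0.11). Among all genes 24.8% rose and 22.4% fell in senescence, and 8.76% rose and 12.1% fell with UK5099. HK2, a hexokinase, moved as AKR1B1 did, from 72.7 ± 6.72 CPM in Prol to 197 ± 4.33 in Sen(IR) and 74.4 ± 4.24 with UK5099 (log2 fold changes 1.44 and -1.41, adjusted p = 3.69e-15 and 2.7e-14). DCXR, the L-xylulose reductase, rose with UK5099 from 9.27 ± 0.817 to 21.4 ± 1.26 CPM (1.21, adjusted p = 1.52e-09). SORD, which oxidises the sorbitol that AKR1B1 makes, had 35.3, 25.1 and 27.8 CPM in Prol, Sen(IR) and UK5099 (named after its values were seen). In senescence it passed the limit on the adjusted p but not on the fold (log2 fold change -0.49, adjusted p = 9.87e-06). With UK5099 it passed neither (0.15, adjusted p = 0.145). With CTPI2 none was called in edgeR, and 2 had an unadjusted p under 0.05.

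Of 20 genes for making, moving, breaking down and sensing prostaglandins, 8 rose and 6 fell in senescence, and 1 rose and 9 fell with UK5099 (medians 0.19 and -0.79). The shares among all genes were 24.8% higher and 22.4% lower in senescence, and 8.76% and 12.1% with UK5099. PTGS2, the inducible cyclooxygenase, went from 2.85 ± 0.577 CPM in Prol to 52.7 ± 2.07 in Sen(IR) and 7.85 ± 0.907 with UK5099 (log2 fold changes 4.22 and -2.74, adjusted p = 2.29e-18 and 1.25e-15). PTGES, which makes prostaglandin E, went from 5.41 ± 1.31 to 18.5 ± 0.886 and 4.63 ± 0.531 CPM (1.77 and -1.99, adjusted p = 1.38e-10 and 9.92e-11). With CTPI2 none was called in edgeR, 5 had an unadjusted p under 0.05, and PTGS2 (log2 fold change -0.47, adjusted p = 0.00965) and PTGR1, given above, passed the adjusted p alone. With UK5099 the libraries thus held more AKR1C3 and less PTGS2, PTGES and AKR1B1 than in Sen(IR).

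Of 22 genes of steroid hormone metabolism and receptors, 12 rose and 1 fell in senescence (median 0.76), and 3 rose and 2 fell with UK5099 (median -0.08). The shares among all genes were 24.8% higher and 22.4% lower in senescence, and 8.76% and 12.1% with UK5099. HSD11B1, which regenerates cortisol, rose from 1.04 ± 0.187 to 8.68 ± 0.961 CPM in Sen(IR) (log2 fold change 3.05, adjusted p = 1.25e-13). HSD17B2, which inactivates estradiol and testosterone, fell with UK5099 from 139 ± 1.64 to 71.1 ± 5.62 CPM (-0.96, adjusted p = 1.22e-11). With CTPI2 none was called in edgeR, and 1 had an unadjusted p under 0.05.

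**Figure D4:**
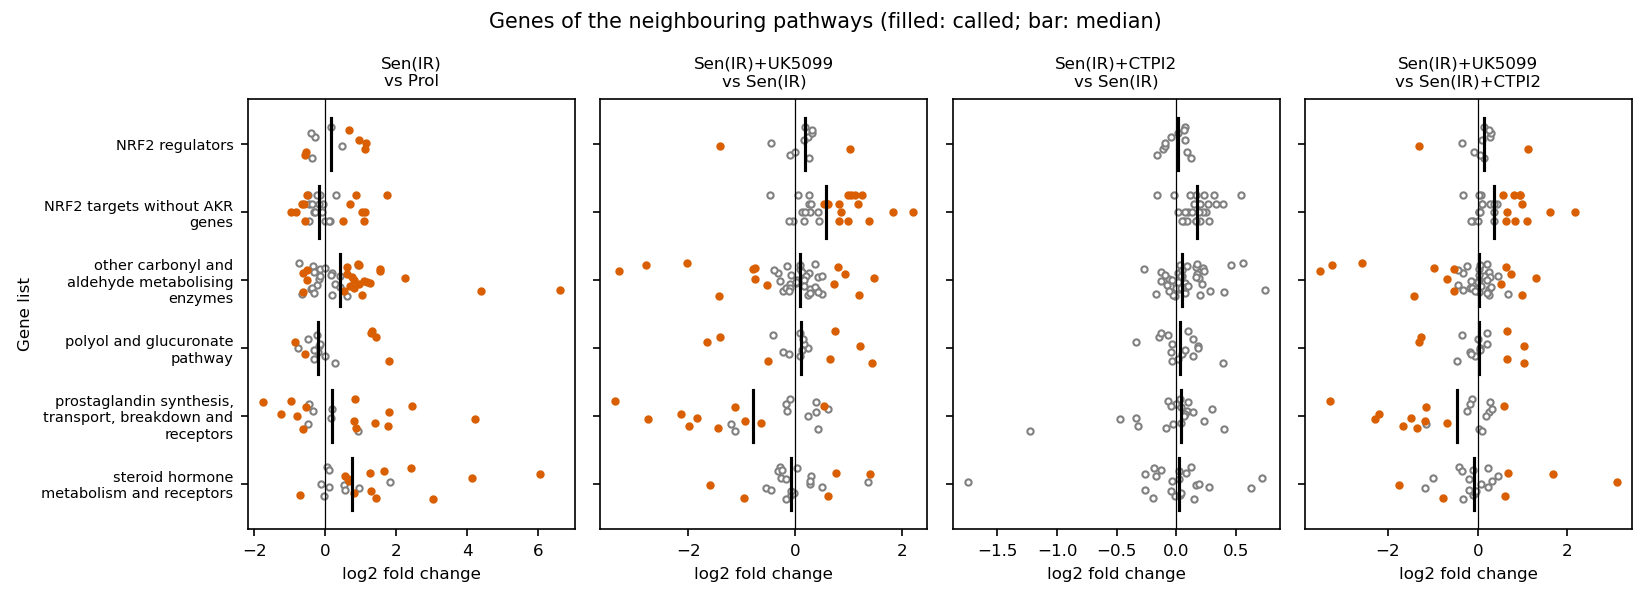
Log2 fold changes of the genes in 6 lists around the aldo-keto reductases, with a panel for each of the 4 comparisons, each with its own horizontal scale. Each point is a gene, filled where called, and black bars are list medians. The bar of the NRF2 targets lies at -0.16 in senescence, 0.57 with UK5099 and 0.17 with CTPI2, and that of the prostaglandin genes at -0.79 with UK5099. Fitted values of genes without a count in Prol, such as ALDH3A1, depend on the prior count.

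The genes whose pattern over the 12 libraries was most like that of a member were found as the smallest root mean square (RMS) difference between centred log2 CPM values, among 12134 tested genes outside the superfamily with a mean log2 CPM above 1. For AKR1C1 these were SLC2A12, a glucose transporter, SLC9A9, a sodium-proton exchanger, and CCDC113 (RMS differences 0.183, 0.185 and 0.205, against a spread of 1.18 of AKR1C1 itself). SLC2A12 was at 3.11 ± 0.15, 15.8 ± 0.562, 33.3 ± 1.5 and 24.1 ± 2.17 CPM in Prol, Sen(IR), UK5099 and CTPI2. For AKR1B1 they were FGF7, a growth factor for epithelial cells, IRAK2, a kinase of interleukin-1 signalling, and PCDH9 (0.112, 0.125 and 0.126, against 0.774). FGF7 was at 186 ± 24.1, 680 ± 16, 251 ± 2.99 and 639 ± 32.4 CPM.

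AKR1C2 was most like CLU, which encodes clusterin, MMP11 and SDSL (0.142, 0.161 and 0.164), and AKR1C3 like AP001372.2, CLU and FAM83H (0.258, 0.267 and 0.269). AKR1A1 was most like GPI, the glycolytic glucose phosphate isomerase (0.049), at 211 ± 7.68, 199 ± 3.21, 154 ± 6.36 and 206 ± 11.1 CPM, then STK25 and NRDC (0.0523 and 0.0599). AKR7A2, whose own spread was 0.107, was nearest to FBXO7, UROD and DCTN2 (0.068 to 0.0739), and AKR1B10 to FMC1, MAP3K7CL and CLEC11A (0.241 to 0.259). For the AKR1C sum the nearest were SLC9A9, SLC2A12 and TP53INP1 (0.18 to 0.204). These are descriptions of 12 libraries in 4 groups, where any gene with the same group means comes out alike.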

How the data were processed

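RNA from 12 MRC5 libraries was sequenced as paired ends. Trimming (Trimmomatic 0.36), alignment to GRCh38 (STAR 2.5.2b) and counting of uniquely placed exon reads (featureCounts, Subread 1.5.2) were done by the authors. They deposited raw counts without normalization, and the setting for strand is not settled by the sources used here. The table has 0 columns from other samples.

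The test was edgeR 4.0.16 in R 4.3.3, with filterByExpr at a minimum count of 10, TMM factors, glmQLFit and glmQLFTest. Group was the only term and all 12 libraries entered. The procedure was checked on simulated data. The AKR1C sum was fitted in a table in which it replaced its 3 rows. DESeq2 1.42.0 was an alternative. Exons and lengths came from GENCODE 44, which holds 56410 of the 57500 genes. Named genes were the members, the rest of the superfamily, at most 4 called genes per list and comparison, and the 3 genes most like each member. Members and lists were chosen with earlier results of these data known. Permutation tests used scipy 1.17.1. Libraries of a group differed by at least 2.28 times the counting noise (chi-square per gene), so none was the same library counted again. This cannot tell separate cultures from separate preparations of 1 culture. Floors cover counting error only.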

Additional observations from a re-analysis of the deposited data

How the results depend on the processing

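Tried as alternatives were DESeq2, scaling by RLE or the upper quartile, testing without the low-count filter, fitting each pair of groups alone, a replicate block, other limits, and leaving out each library in turn. In Sen(IR) against Prol and in UK5099 against Sen(IR), the counts of called members stayed within 1.5 times the reported ones in all of these. With CTPI2, the 1 called member became 0 when the fold limit was raised to 1 (log2), and 2 with DESeq2's unadjusted p. In UK5099 against CTPI2, 4 became 1 at the limit of 1. That limit is above the AKR1C sum's log2 fold changes of 0.512 with CTPI2 and 0.557 for UK5099 against CTPI2. Leaving out each library gave 4 called members in senescence, 4 to 5 with UK5099, 1 with CTPI2 and 3 to 5 between inhibitors. The AKR1C sum then ranged from 1.91 to 2.1, 1.02 to 1.11, 0.499 to 0.529 and 0.51 to 0.599 in the same order.

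Reversals of sign were confined to log2 fold changes of -0.03 to 0.22 that had not passed the test. AKR7A2 in senescence went to 0.0911 with upper-quartile scaling. The other reversals came from leaving out 1 library: in senescence AKR1B10 then ranged from -0.055 (without Prol replicate 2) to 0.583 and AKR7A2 from -0.123 to 0.0301, and with UK5099 AKR7A2 ranged from -0.0679 to 0.0136 (without Sen(IR) replicate 2). With CTPI2 the ranges were -0.0105 (without CTPI2 replicate 1) to 0.0861 for AKR1A1, -0.045 to 0.00877 (without Sen(IR) replicate 1) for AKR1B1, and -0.0238 (without Sen(IR) replicate 1) to 0.387 for AKR1B10. The cause was not tested.

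The replicate numbers did not pair the samples (correlations of same-numbered deviations of -0.0145 to 0.0423 over 12 pairs). With the replicate number as a block, 4, 5, 1 and 4 members were called, as without it, and the AKR1C sum changed by 2.01, 1.07, 0.511 and 0.556. The longest transcript as length, added after the data were seen for the ratio and for the members' shares, moved per-length levels (AKR1B1 in Sen(IR) from 554 to 772). Depth limits AKR1C3 (14 to 112 counts per library) and AKR1B10 (23 to 67) most.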
